A study of Mus musculus with 6 samples.

Results

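Autophagy genes were compared between the DP and DN subsets of mouse germinal centre B cells. They were taken by symbol from the deposited gene counts: every gene whose symbol begins with Atg and a digit, with Gabarap or with Map1lc3, and a list of 20 further genes from Ulk1 to Bnip3l. This gave 44 of the 55401 genes listed. The study holds 6 RNA sequencing libraries of polyadenylated RNA, 3 labelled DP and 3 labelled DN, and the labels give both subsets the same description in every other respect. The cells were sorted germinal centre B cells from the spleens of wild-type C57BL/6 mice that had been given sheep red blood cells (SRBC, a T-dependent antigen) by intraperitoneal injection, were challenged at day 5 and were killed at day 12. The labels name no markers for DP or DN, and by the study's design text each of 3 mice gave both subsets. No label ties a library to an animal, so a p-value here speaks only of how the libraries of a subset differ, and that may be technical.

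Macroautophagy encloses cytoplasm in a double membrane and delivers it to the lysosome. A kinase complex built around ULK1 or ULK2 starts the process, a phosphatidylinositol 3-kinase complex with Beclin 1 marks the membrane, ATG9 and ATG2 supply lipid, and a pair of ubiquitin-like conjugation systems attaches LC3 and GABARAP proteins to the growing membrane. Cargo receptors bind LC3 or GABARAP on one side and ubiquitinated or organelle cargo on the other. In B cells, autophagy is known for its part in the survival of memory B cells and plasma cells.

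Gene counts lay between 17509384 and 20538024 per library in DP and between 8904415 and 11897360 in DN. The B cell genes Cd79a, Cd79b, Ms4a1, Pax5 and Ebf1 were detected in both subsets and were each called lower in DP. Ms4a1 averaged 491 CPM in DP and 965 CPM in DN, and Pax5 474 CPM in DP and 638 CPM in DN. CPM here means counts scaled to a library size of 1e+06 that was adjusted by TMM factors. Of 9 germinal centre marker genes, 8 were called lower in DP and 1, Mef2b, higher, and all 9 were detected in both subsets. Their summed level was 945 to 992 CPM in DP and 3563 to 3626 CPM in DN, and 6 of the 9 were at least 2-fold lower in DP. Of 4 tested naive follicular B cell genes, 3 were lower and 1 higher (95.3 to 101.7 CPM in DP, 91.8 to 100.7 CPM in DN). Of the tested marker genes of other cell types, 6 of 6 erythroid genes were lower in DP (summed level 15.9 to 18.3 CPM in DP, 62.1 to 72.5 CPM in DN). Of 9 macrophage genes 8 were lower and 1 higher (47.5 to 49.6 CPM in DP, 71.2 to 76.7 CPM in DN), with Cd14 at 0 in all libraries, and the part of these cells in the autophagy values was not tested. Of 5 tested plasma cell genes 4 were higher and 1 lower (365 to 376 CPM in DP, 399.7 to 409.7 CPM in DN). T cell genes summed to 1.19 to 1.78 CPM in DP and 2.83 to 4.11 CPM in DN. In bulk RNA, fewer cells of a type and less RNA per cell cannot be told apart.

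Most autophagy genes were lower in DP. Of the 44 genes, 41 passed the filter on low counts and were tested, and 26 were called lower, 7 higher and 8 not called (edgeR quasi-likelihood test, Benjamini-Hochberg adjusted p under 0.05 over all 11296 tested genes). Among all tested genes 75.9% were called, 37.6% lower and 38.3% higher. The share of autophagy genes called, 80.5%, was near that background, and 63.4% were lower and 17.1% higher; no test was made of the list. Their median log2 fold change of DP over DN was -0.47, against 0.01 for all tested genes, while the median size of the change without its sign was 0.56, against 0.53. At least 1.5-fold changes were called for 16 genes lower in DP and 3 higher, and 45.1% of all tested genes were called with such a change, 22.8% lower and 22.4% higher. Summed over the 44 genes, the level was 1805 to 1837 CPM in the DP libraries and 2528 to 2558 CPM in the DN libraries. With library totals alone as the scaling, 29 were lower and 3 higher, beside 47.4% and 29.1% of all genes, the median of all genes was then -0.19, and the rises of Atg3, Atg16l1 and Ambra1 turned to values just below 0. The test of DESeq2, which gave an adjusted p for 15158 genes, called 21 lower and 4 higher. The shares of all genes called by it are not given here, so these counts stand without a background.

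**Figure D1:**
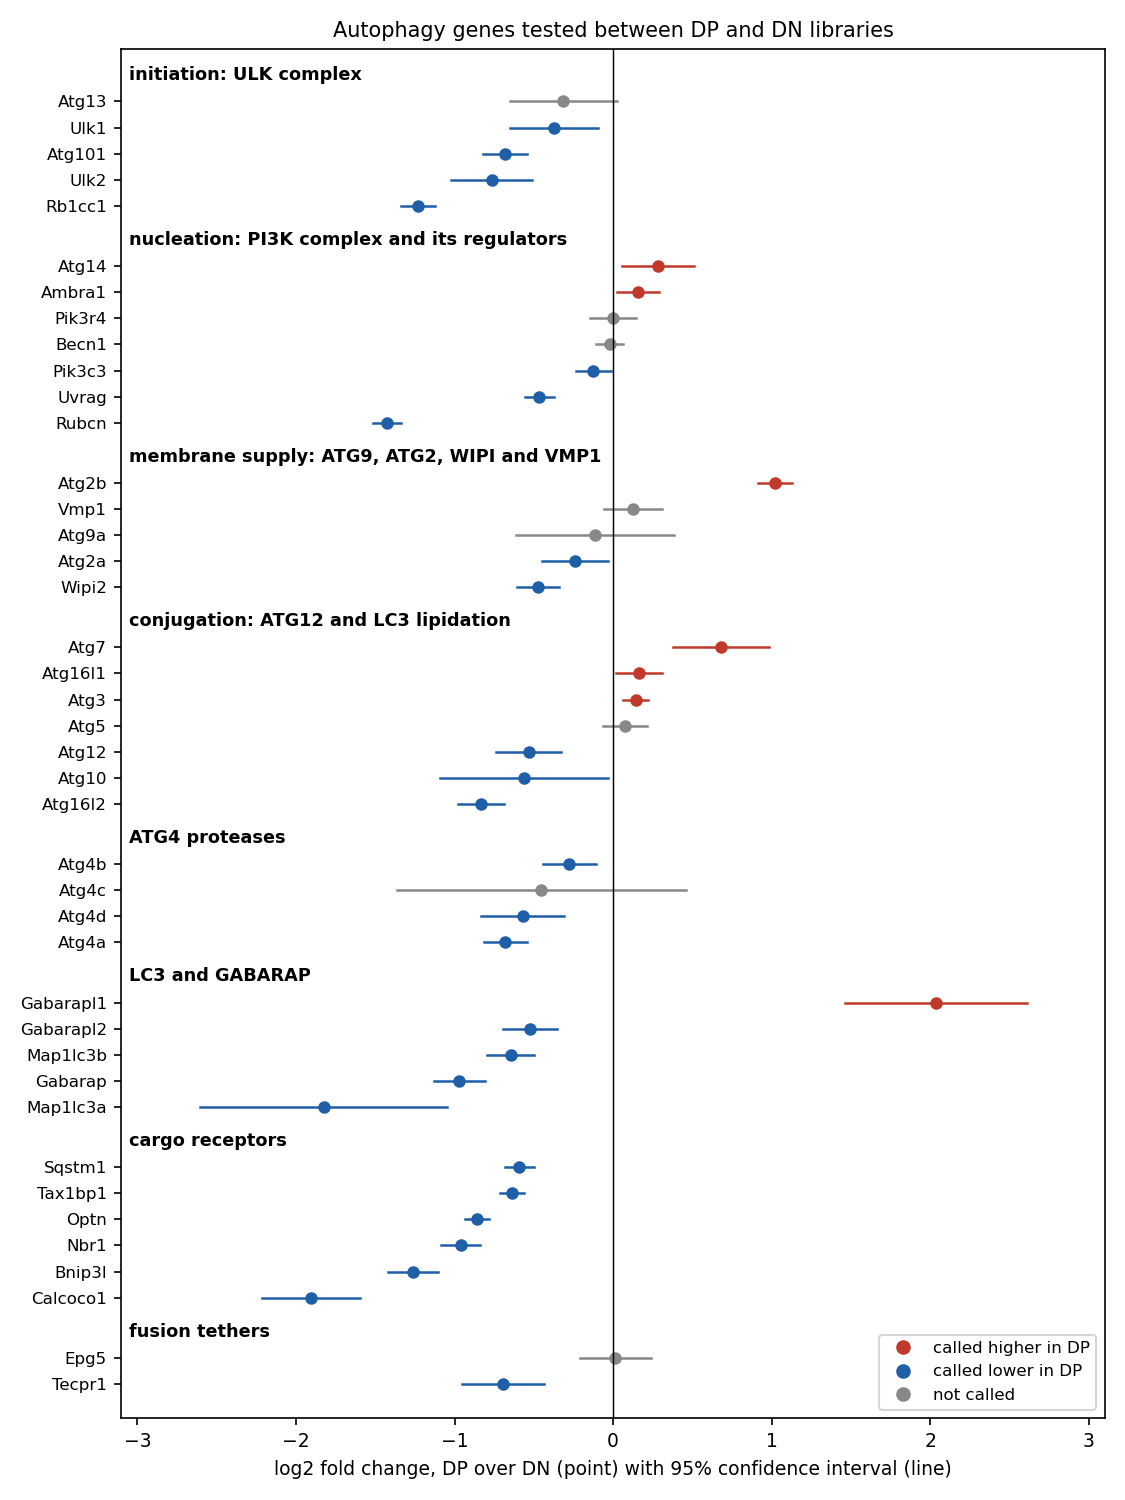
Log2 fold change of DP over DN for the 41 tested autophagy genes, grouped by role, with 95% confidence intervals from the edgeR fit. The 6 cargo receptors all lie left of 0, and Gabarapl1, Atg2b and Atg7 lie farthest to the right.

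**Figure D2:**
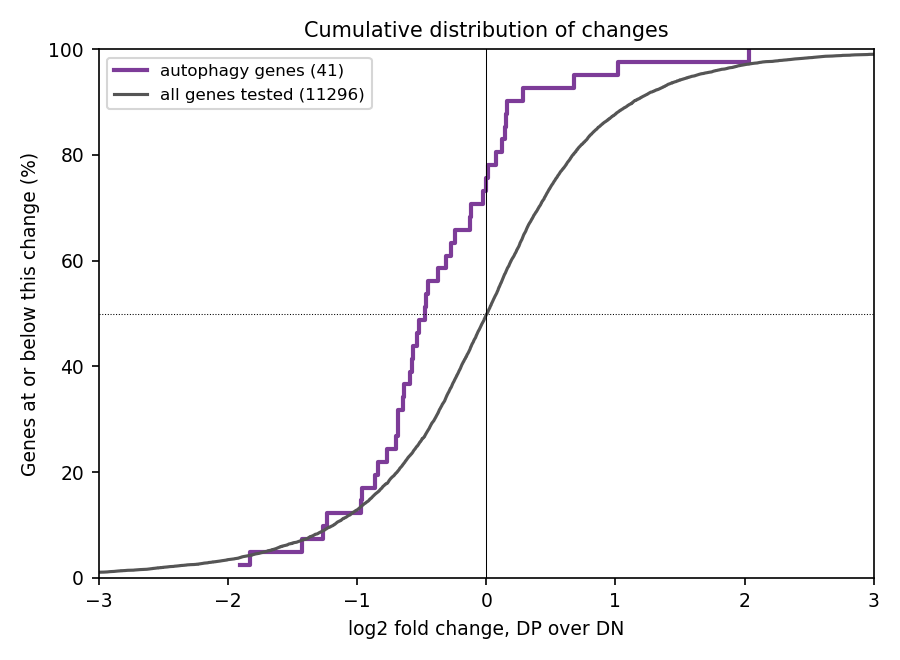
Percentage of genes at or below each log2 fold change of DP over DN, for the 41 tested autophagy genes (stepped line) and all 11296 tested genes (smooth line). The autophagy line crosses 50% at -0.47 and the line of all genes at 0.01.

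The genome sequence around transcript starts was read for a motif that several autophagy genes are known to carry. CACGTG, the E-box, is bound by MYC with MAX and lies at the core of the CLEAR element, which is bound by TFEB and related factors. RefSeq promoter windows (GRCm38.p6, the mm10 assembly, 250 bases before to 50 after a start) were found for 35 of the 44 genes, 42 windows in all. In 27 of the 42 the start lay within 100 bases of the annotated gene start. The rates below thus include windows farther from it. The E-box, which reads the same on both strands, was in 5 of the 42 (11.9%) and in 7.15% of all 32851 windows. TCACGTG or its reverse complement CACGTGA, which contain the E-box, was in 4 (9.52%, against 3.77% of all windows), and the forkhead motif TGTTTAC or GTAAACA was in 0 (3.65% of all windows). The genes with an E-box were Atg3, Atg5, Atg7, Atg14 and Rubcn. The windows of Atg3 and Atg5 are shown because their starts lie 44 and 19 bases from the start of the annotated gene, whereas those of Atg7, Atg14 and Rubcn lie 27999, 2215 and 9400 bases inside it. Rubcn has another window, with its start 37 bases from that of the annotated gene, and this window holds no E-box. The windows of Gabarapl1 and Atg2b, the tested genes with the largest rises in DP, are shown beside them and hold no E-box. Capitals mark the E-box, and the sequences run 5' to 3' on the strand of the gene.
Atg3, chr16:45158579-45158878, plus strand: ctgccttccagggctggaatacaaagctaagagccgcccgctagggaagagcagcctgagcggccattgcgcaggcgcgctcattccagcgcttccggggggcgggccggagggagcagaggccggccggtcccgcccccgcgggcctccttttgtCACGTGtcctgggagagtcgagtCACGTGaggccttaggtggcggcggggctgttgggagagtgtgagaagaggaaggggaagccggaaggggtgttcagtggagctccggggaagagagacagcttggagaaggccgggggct
Atg5, chr10:44268089-44268388, plus strand: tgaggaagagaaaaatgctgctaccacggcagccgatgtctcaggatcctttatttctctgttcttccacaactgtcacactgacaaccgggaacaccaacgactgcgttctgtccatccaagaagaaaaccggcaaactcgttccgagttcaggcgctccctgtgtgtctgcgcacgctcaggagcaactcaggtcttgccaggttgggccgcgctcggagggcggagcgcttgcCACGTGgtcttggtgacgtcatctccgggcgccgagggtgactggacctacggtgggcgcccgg
Gabarapl1, chr6:129532942-129533241, plus strand: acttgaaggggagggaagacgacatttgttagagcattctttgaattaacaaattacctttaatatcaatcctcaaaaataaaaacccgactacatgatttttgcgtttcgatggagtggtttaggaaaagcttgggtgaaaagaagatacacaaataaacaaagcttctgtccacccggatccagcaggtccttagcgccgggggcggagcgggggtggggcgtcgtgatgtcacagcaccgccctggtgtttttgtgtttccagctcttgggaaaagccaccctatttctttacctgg
Atg2b, chr12:105685192-105685491, minus strand: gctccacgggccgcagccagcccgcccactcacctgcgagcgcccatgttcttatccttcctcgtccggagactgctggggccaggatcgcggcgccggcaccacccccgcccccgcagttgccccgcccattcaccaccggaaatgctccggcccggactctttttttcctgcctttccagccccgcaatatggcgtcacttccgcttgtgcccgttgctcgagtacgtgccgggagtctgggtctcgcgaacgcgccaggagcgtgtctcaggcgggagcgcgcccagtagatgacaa
Atg3 has 2 E-boxes, the farther of them 94 bases before the start, and Atg5 has 1, at 14 bases. Of the 5 genes with an E-box in a window, Atg3, Atg7 and Atg14 were called higher in DP, Atg5 was not called and Rubcn was lower. Among all tested genes 38.3% were called higher and 37.6% lower. The Atg3 change was -0.05 with library totals alone, and Atg14 lost its call in 8 of 19 alternatives. Motifs and calls are set side by side as a description of letters in fixed windows, and no test was made of them.

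The 6 cargo receptor genes among the 44, whose products select what is degraded, were all lower in DP. All 6 were called (75.9% of all tested genes were), and each was at least 1.5-fold lower (22.8% of all tested genes were called so). In none did a DP library reach the lowest DN library (77% of all tested genes had no overlap, in either direction). Of 19 tested receptor genes from a further list, 10 were lower, 4 higher and 5 not called. That is 52.6% lower and 21.1% higher, beside 37.6% and 38.3% of all tested genes. Optn encodes optineurin, a receptor for ubiquitinated bacteria and mitochondria, and lies at chr2:5020642-5064051 (minus strand, protein-coding). It had 241, 232 and 234 CPM in the DP libraries, against 429.8, 417 and 436 CPM in the DN libraries. The change was -0.86 ± 0.04 (log2 fold change ± standard error, edgeR adjusted p = 8.36e-30). Below, ± is the standard error after a log2 fold change and the SD of 3 libraries after a level or a share. Per kilobase of exon, Optn was the most abundant of the 44 genes in DN, with 62.9 CPM per kb in DP and 114 in DN. In DP that place was held by Atg3, with 76.1 CPM per kb. The order rests on the length of all annotated exons of each gene. Without division by length, Optn was still the highest in DN (427 CPM, against 395 for Tax1bp1). In DP, Tax1bp1 was then the highest (254 CPM, against 240 for Atg3 and 236 for Optn).

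Tax1bp1 encodes a receptor that brings ubiquitinated cargo to the autophagosome. Its level was 262, 243 and 257 CPM in DP and 414, 393 and 378 CPM in DN (-0.64 ± 0.04, edgeR adjusted p = 9.45e-23). Sqstm1 encodes p62, which gathers ubiquitinated proteins into condensates. It had 89.7, 97.6 and 89.6 CPM in DP and 133, 147 and 139 CPM in DN, a fall of 0.59 ± 0.05 on the log2 scale, the smallest among the receptors. Nbr1, whose product works with p62 in aggregate clearance, stood at 33.1, 29.5 and 31.2 CPM in DP and at 61.1, 59.0 and 62.0 CPM in DN (-0.96 ± 0.06). Of the exon length of Sqstm1, 17.3% overlaps Mrnip on the other strand. Mrnip itself was not called (log2 fold change -0.27), and whether the counting used strand is not stated.

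Calcoco1, which encodes a receptor for turnover of the endoplasmic reticulum and the Golgi, had the largest fall of the 41 tested genes. It was at 2.67, 3.52 and 2.69 CPM in DP, against 9.59, 12.0 and 12.4 CPM in DN (-1.91 ± 0.15, edgeR adjusted p = 3.83e-17). The gene lies at chr15:102706777-102722178. Bnip3l encodes NIX, a mitochondrial receptor known for clearing mitochondria from maturing red cells. Its levels were 15.0, 14.9 and 14.9 CPM in DP and 36.0, 36.6 and 34.9 CPM in DN (-1.26 ± 0.08). The erythroid marker genes moved the same way, Alas2 at 5.40 CPM in DP and 18.8 CPM in DN and Hbb-bs at 2.61 CPM in DP and 11.4 CPM in DN. None of the 9 erythroid genes listed was at 0 in all libraries, and their part in the Bnip3l value was not tested.

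**Figure D3:**
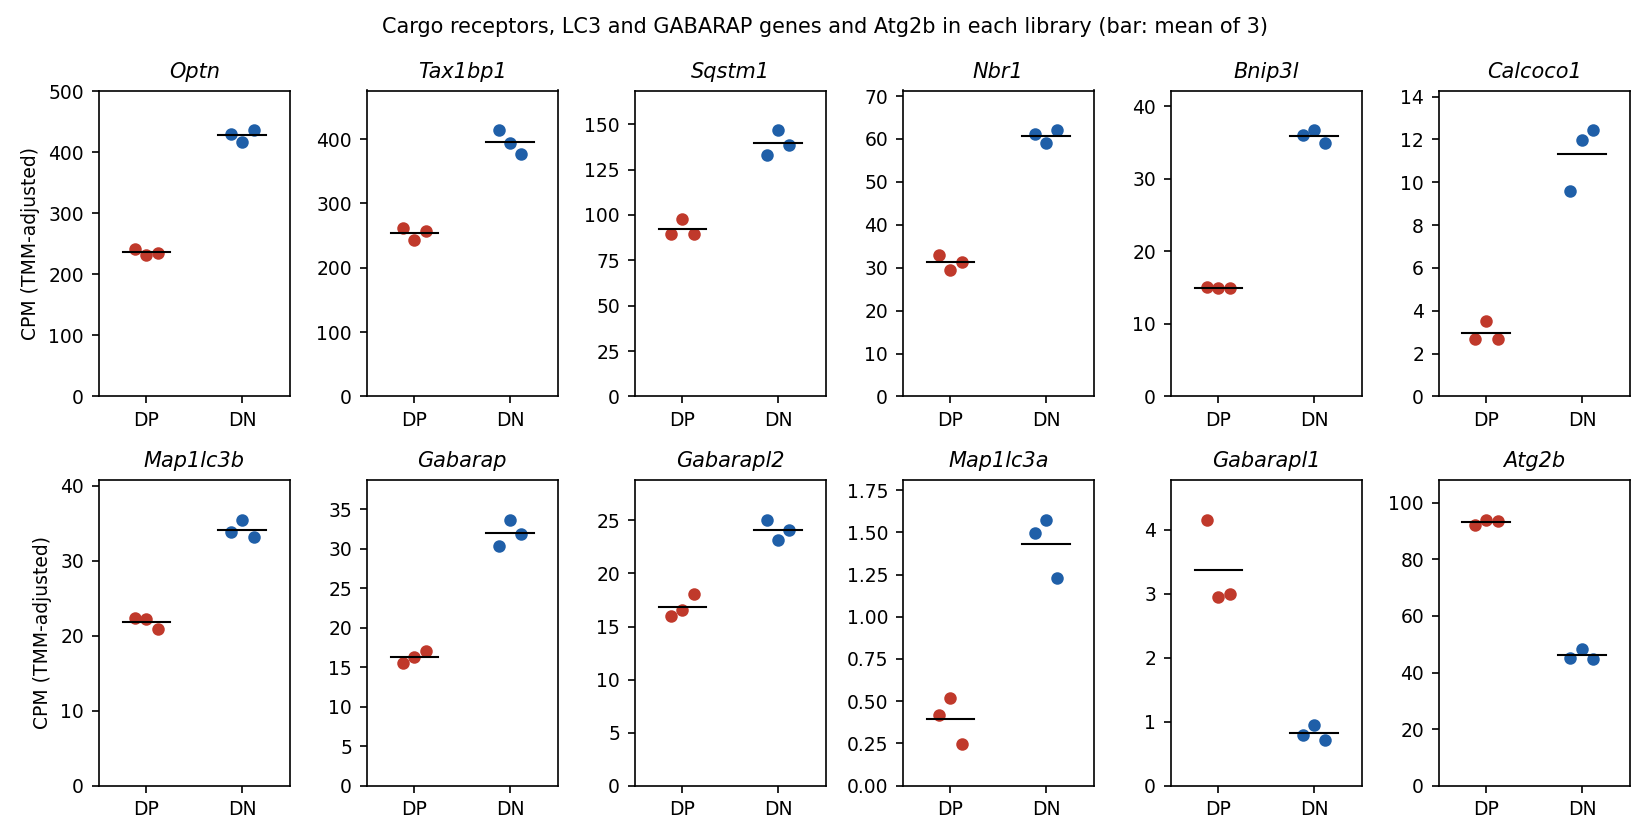
Level in CPM of each cargo receptor gene, each LC3 or GABARAP gene and Atg2b in every library, DP at left and DN at right, with the mean of 3 libraries as a line. In each panel the DP and DN libraries do not overlap, and DP lies above DN for Gabarapl1 and Atg2b.

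The LC3 and GABARAP genes encode the ubiquitin-like proteins that are attached to the autophagosome membrane. Of the 5, 4 were lower in DP and 1, Gabarapl1, was higher. Gabarap had 15.5, 16.3 and 17.1 CPM in DP and 30.4, 33.7 and 31.9 CPM in DN (-0.97 ± 0.08, edgeR adjusted p = 1.22e-16). Map1lc3b, the gene of the widely used autophagosome marker LC3B, was at 22.4, 22.2 and 20.8 CPM in DP and 33.8, 35.5 and 33.2 CPM in DN (-0.64 ± 0.07). Gabarapl2, also known as GATE-16, was at 16.0, 16.5 and 18.1 CPM in DP and 25.1, 23.2 and 24.1 CPM in DN (-0.52 ± 0.09). In these 3 genes every DP library was below every DN library. Map1lc3a was scarce, with 7, 10 and 4 counts in DP and 19, 15 and 12 in DN, and fell by 1.82 ± 0.39 on the log2 scale.

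Gabarapl1, at chr6:129533160-129542346 on the plus strand, showed the largest rise of the 41 tested genes. It had 4.15, 2.95 and 2.99 CPM in DP, against 0.786, 0.945 and 0.718 CPM in DN (2.03 ± 0.29, edgeR adjusted p = 5.83e-09). The DP values rest on 70, 57 and 49 counts and the DN values on 10, 9 and 7. DP replicate 1 was the highest of the 6 libraries, and the lowest DP library was still above all DN libraries. Of its exon length 28.3% overlaps 1700101I11Rik on the other strand, which had 0 counts in every library. Gabarapl1 was a minor member of the family by abundance. Per kilobase of exon, it made up 7.98% ± 1.73 of the summed family level in DP and 1.19% ± 0.144 in DN (SD, n = 3 libraries each). Gabarap made up 42.1% ± 1.22 in DP and 51.2% ± 1.66 in DN, Gabarapl2 34.5% ± 1.51 in DP and 30.6% ± 1.81 in DN, and Map1lc3b 13.8% ± 0.831 in DP and 13.4% ± 0.208 in DN. The order of the family rests on the length used, which for Map1lc3b was the 7517 bases of all its annotated exons. Of the family's CPM without division by length, Map1lc3b made up 37.1% ± 1.73 in DP and 36.9% ± 0.508 in DN, more than any other member, and Gabarapl1 5.73% ± 1.18 in DP and 0.881% ± 0.105 in DN. The family as a whole summed to 20.7 to 21.5 CPM per kb in DP libraries and 33.4 to 34.8 in DN libraries. Reads that map to more than 1 place, as reads shared with processed copies of these genes may, were not counted to a gene in these files.

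The ATG4 proteases trim LC3 and GABARAP before conjugation and release them afterwards. Of 4 tested, Atg4a (-0.68 ± 0.07), Atg4d (-0.57 ± 0.13) and Atg4b (-0.28 ± 0.08) fell in DP, while Atg4c, at 0.591 ± 0.328 CPM in DP and 0.803 ± 0.541 CPM in DN, was not called. Atg4a took 76.7% ± 1.33 of the family level per kilobase in DP and 80.3% ± 0.880 in DN. Atg4a-ps had at most 5 counts in any library and was not tested. Kri1, on the other strand, overlaps 19.3% of the exon length of Atg4d and was itself higher in DP (0.63 ± 0.07). Atg4b was not called by DESeq2 (adjusted p = 0.0527).

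Of the 7 conjugation genes, 3 were higher in DP, 3 lower and 1 not called. ATG7 is the activating enzyme of both conjugation systems, ATG3 and ATG10 are the conjugating enzymes, and ATG12, ATG5 and ATG16L1 form the complex that places LC3 on the membrane. Atg7 had 7.54, 8.13 and 10.2 CPM in DP and 4.17, 5.88 and 6.36 CPM in DN (0.68 ± 0.15, edgeR adjusted p = 6.57e-05). The lowest DP library was above the highest DN library. Atg3 was at 244, 232 and 245 CPM in DP and 214, 226 and 213 CPM in DN, a small rise (0.14 ± 0.04) that was -0.05 with library totals alone (adjusted p = 0.193). Atg5 was at 32.3 ± 0.815 CPM in DP and 30.5 ± 1.38 CPM in DN and was not called (0.08, 95% interval -0.06 to 0.22). Atg12 fell by 0.53 ± 0.10 on the log2 scale. Atg10, at 1.54 ± 0.153 CPM in DP and 2.28 ± 0.701 CPM in DN, overlapped between the subsets and lost its call in 13 of the 18 alternatives that tested it, among them leaving out DP replicate 1, 2 or 3 or DN replicate 1 or 3.

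Of the ATG16L pair, Atg16l2 was lower in DP. Atg16l2, whose product resembles ATG16L1 and whose role in autophagy is less clear, had 20.8, 23.2 and 22.2 CPM in DP and 39.0, 38.5 and 40.8 CPM in DN (-0.83 ± 0.07, edgeR adjusted p = 4.66e-16). Atg16l1 had 34.1, 38.3 and 39.4 CPM in DP and 36.9, 33.3 and 29.3 CPM in DN (0.16 ± 0.07, adjusted p = 0.0414). The Atg16l1 groups overlapped, and it was at -0.04 with library totals alone. It was not called by DESeq2 (adjusted p = 0.121), nor without DP replicate 2 or 3 or DN replicate 2 or 3. Per kilobase, Atg16l1 made up 59.1 to 60.9% of the summed level of the pair in DP libraries and 38.6 to 45.4% in DN libraries. The exact two-sided permutation p was 0.1, the smallest that 3 against 3 allows, and 0.119 adjusted over the 19 paralogue shares compared.

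Of the 5 genes of the initiation complex, 4 were called, all of them lower in DP. The share called, 80%, was near the 75.9% of all tested genes, of which 37.6% were lower. Rb1cc1 encodes FIP200, the scaffold of the complex, and lies at chr1:6206197-6276648. Its level was 56.2, 52.8 and 61.0 CPM in DP, against 144, 128 and 125 CPM in DN (-1.23 ± 0.05, edgeR adjusted p = 3.09e-26). Every DP library was below every DN library. The kinase genes Ulk2 (-0.77 ± 0.13) and Ulk1 (-0.37 ± 0.14) and the accessory subunit gene Atg101 (-0.68 ± 0.07) fell as well, although Ulk1 was not called by DESeq2 (adjusted p = 0.129), nor without DP replicate 2 or DN replicate 3. Atg13, the remaining subunit, was at 4.19 ± 0.331 CPM in DP and 5.24 ± 0.541 CPM in DN and was not called (adjusted p = 0.0843).

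Of the 7 genes of the phosphatidylinositol 3-kinase complex and its regulators, 3 were lower in DP, 2 higher and 2 not called. Becn1, the gene of Beclin 1, had 141, 147 and 149 CPM in DP and 146, 144 and 154 CPM in DN (-0.02, 95% interval -0.11 to 0.06). It was called lower with library totals alone (-0.22) and with GC content and length corrected (-0.19), and 43.9% of its exon length overlaps the sparse gene Cntd1 on the other strand. Pik3r4, which encodes the regulatory subunit VPS15, was at 30.7 ± 1.41 CPM in DP and 30.9 ± 2.30 CPM in DN (0.00, interval -0.14 to 0.15). Pik3c3, the catalytic subunit VPS34, was called lower by 1.09-fold (51.8 ± 0.894 CPM in DP, 56.2 ± 2.50 CPM in DN), a call lost in 13 of 19 alternatives, among them leaving out DP replicate 1, 2 or 3 or DN replicate 1 or 3, and the value was 0.03 with GC content and length corrected.

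Rubcn encodes Rubicon, an inhibitor of autophagosome maturation that is also needed for LC3-associated phagocytosis. It had 77.4, 87.0 and 77.3 CPM in DP, against 217, 209.9 and 223 CPM in DN (-1.42 ± 0.04, edgeR adjusted p = 9.41e-37), the smallest p of the 41 tested genes. The gene lies at chr16:32821703-32877766 on the minus strand. Uvrag, whose product pairs with Beclin 1 in endosome maturation, fell by 0.46 ± 0.05. Atg14, which directs the complex to the autophagosome site, had 12.1, 13.1 and 11.5 CPM in DP and 9.35, 9.45 and 11.6 CPM in DN (0.28 ± 0.11, edgeR adjusted p = 0.0219), and Ambra1, a Beclin 1 partner, had 39.1, 37.9 and 42.0 CPM in DP and 35.5, 37.9 and 33.5 CPM in DN (0.15 ± 0.07, adjusted p = 0.0321). Both overlapped between the subsets. Neither was called by DESeq2 (adjusted p = 0.114 for Atg14, 0.0992 for Ambra1), and Ambra1 was at -0.04 with library totals alone. The Atg14 call was lost without DP replicate 2 or DN replicate 1 or 2, and the Ambra1 call without DP replicate 3 or DN replicate 1 or 3.

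Among the genes of membrane supply, Atg2b stood apart. ATG2 proteins carry lipid from the endoplasmic reticulum into the growing membrane. Atg2b, at chr12:105616136-105685211, had 92.3, 94.1 and 93.5 CPM in DP, against 45.0, 48.3 and 44.9 CPM in DN (1.02 ± 0.05, edgeR adjusted p = 6.46e-26). Its paralogue Atg2a was at 11.9 ± 0.544 CPM in DP and 14.0 ± 0.886 CPM in DN (-0.24 ± 0.10), a call that was lost without DP replicate 1 or 2 or DN replicate 1 or 2 and by DESeq2 (adjusted p = 0.205). Per kilobase, Atg2b made up 81.1 to 82.2% of the pair in DP libraries and 64.8 to 66.1% in DN libraries. Wipi2, which reads the lipid mark and recruits ATG16L1, fell by 0.47 ± 0.07. Vmp1, a scramblase of the endoplasmic reticulum, was not called (20.4 ± 2.56 CPM in DP, 18.7 ± 1.16 CPM in DN). Atg9a, the gene of the scramblase of ATG9 vesicles, was not called at 2.00 ± 0.334 CPM in DP and 2.15 ± 0.395 CPM in DN, and 31.8% of its exon length overlaps another gene model on the same strand, where reads cannot be assigned to either. Atg9b had 2, 6 and 4 counts in DP and 0 in all DN libraries, and Wipi1 had 2, 2 and 2 counts in DP and 4, 4 and 2 in DN, so neither was tested at this depth.

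**Figure D4:**
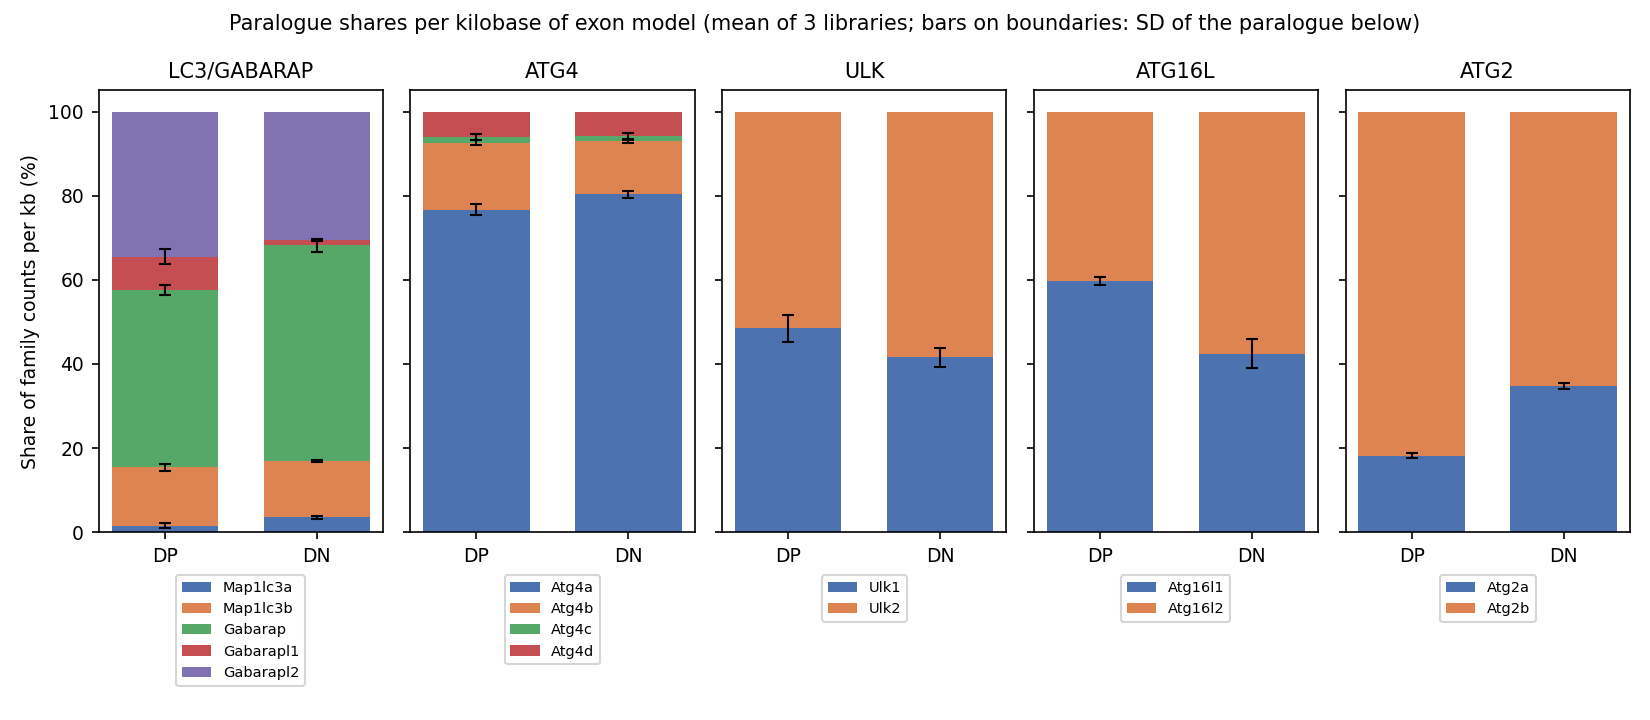
Share of each paralogue in the summed level of its family per kilobase of exon, as the mean of 3 libraries for DP (left) and DN (right), with SD on the boundaries. Atg2b takes 81.8% of its pair in DP and 65.3% in DN, and Atg16l1 59.8% in DP and 42.4% in DN.

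Of the tethers of autophagosome and lysosome, Tecpr1 fell by 0.70 ± 0.13 on the log2 scale. Epg5 was at 10.7 to 11.4 CPM in DP libraries and 10.3 to 11.8 CPM in DN libraries (0.01, 95% interval -0.21 to 0.24).

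Genes of the wider pathway, from 4 further lists, moved in both directions, as did all tested genes (37.6% lower and 38.3% higher in DP). Between 73.3 and 80.0% of the tested genes of each list were called, near the 75.9% of all tested genes. Of 20 tested accessory factors, 8 were lower and 7 higher in DP (median log2 fold change -0.00). Acbd5, a peroxisomal protein linked to peroxisome turnover, fell by 1.62 ± 0.06, Sh3glb1, which encodes the Beclin 1 partner Bif-1, fell by 1.28 ± 0.05 and Rubcnl, which encodes the Rubicon relative Pacer, fell too (16.8 ± 1.04 CPM in DP, 36.2 ± 1.96 CPM in DN, SD, n = 3 each). Usp10, a deubiquitinase that acts on Beclin 1, rose by 1.01 ± 0.06. Of the 19 tested other receptors, the 4 that were higher were Nufip1, Phb2, Bcl2l13 and Fkbp8 (median of the 19 -0.16). The endoplasmic reticulum receptor gene Retreg1 fell by 1.21 ± 0.05 and the mitochondrial receptor gene Fundc1 by 0.80 ± 0.04, whereas Nufip1, a ribosome receptor that also assembles small nucleolar ribonucleoproteins, rose by 1.29 ± 0.05 and Phb2, a protein of the inner mitochondrial membrane, by 1.24 ± 0.05.

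Of 20 tested genes of fusion with the lysosome, 8 were lower and 8 higher (median -0.04). That is 40% each way, near the 37.6% and 38.3% of all tested genes. The SNARE gene Snap29 fell by 0.81 ± 0.05 and the adaptor gene Plekhm1 by 0.75 ± 0.06, while its relative Plekhm2 rose by 0.99 ± 0.09 and the lysosomal GTPase gene Arl8b by 0.62 ± 0.05. Of 30 tested genes of upstream control by mTORC1, AMPK and the TFEB family, 11 were lower and 11 higher (36.7% each way, median 0.07). Sesn3, a restraint on mTORC1, fell by 0.96 ± 0.05 and Zkscan3, described in human cells as a repressor of autophagy genes, by 1.02 ± 0.07. Rptor, which encodes the mTORC1 subunit Raptor, rose by 0.88 ± 0.08 and Lamtor3, a subunit of its lysosomal anchor, by 0.66 ± 0.06. Tfeb, named after its value was seen, was at 49.7 ± 3.70 CPM in DP and 48.1 ± 2.21 CPM in DN and was not called (adjusted p = 0.486).

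Of the 41 tested autophagy genes, 30 had no overlap between DP and DN libraries (73.2%), as did 77% of all tested genes. Of the 33 called genes, 24 kept their direction and call in the 18 alternatives that tested for a difference of any size, 21 of them lower and 3 higher in DP. Map1lc3a, among the 24, was not tested in the alternative with a filter of 30 counts. How many of all called genes kept theirs was not counted, so the 24 stand without a background. Tested against a minimum of 1.5-fold, 9 were lower and 2 higher, beside 34.3% of all genes called in either direction. The 9 were Calcoco1, Map1lc3a, Rubcn, Bnip3l, Rb1cc1, Gabarap, Nbr1, Optn and Atg16l2, and the 2 were Gabarapl1 and Atg2b.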

How the data were processed

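Libraries were grouped by their titles. The authors' deposited values are raw read counts per gene, 1 table per library, with 5 summary rows that name no gene. These rows held 9.56% of counts on average in DP and 12.6% in DN and were left out. Build mm10 and the programs HTSeq 0.13.5, STAR 2.7.10a and Trim Galore 0.6.6 are named in the submitters' processing notes. For the annotation release, use of strand and treatment of duplicates, no source used here says what was done. Reads of overlapping genes may thus be lost or merged, and floors cover counting error only. A floor of 3 counts was 0.155 to 0.183 CPM in DP libraries and 0.236 to 0.315 in DN libraries.

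DP was compared with DN in edgeR 4.0.16 under R 4.3.3 (glmQLFit and glmQLFTest) with TMM factors, filterByExpr (minimum count 10), robust estimation and Benjamini-Hochberg adjustment over 11296 genes. Calls needed an adjusted p under 0.05. Standard errors came from the fold change and its F statistic. Alternatives included DESeq2 1.42.0. Positions and exon lengths came from GENCODE M21 (mm10), which held 43 of the 44 genes with the same version. Tested on simulated counts for this comparison (11157 genes, 200 changed), this fit found 4% of the genes changed 1.1-fold, 62% at 1.2-fold, 78% at 1.5-fold and 92% at 2-fold. False calls were 6.35% of all calls. The simulation gave every gene the same spread between replicates (a coefficient of variation of 3.31%). It also changed only those 200 genes, whereas 75.9% of tested genes were called in the real data. Both settings affect the shares found and the false calls, so these rates cannot be carried over to the real comparison. Replicates differed by more than sampling noise (chi-square per degree of freedom 1.96 to 3.24 in DP and 1.98 to 3.26 in DN), and all 6 libraries were kept.

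The genes and lists were chosen with earlier results of these data known. Values of each library are given for the 8 largest falls, all 7 rises and every LC3, GABARAP and receptor gene, and for a few more genes chosen after their values were seen. From each further list up to 4 genes with the smallest p were named.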

Additional observations from a re-analysis of the deposited data

How the results depend on the processing

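In all, 19 alternatives were run. Of the 33 called autophagy genes, 11 kept direction and call in every alternative that tested them. Map1lc3a was tested in 18, since it did not pass the filter of 30 counts. No such count was made over all called genes. Leaving libraries out gave 5 to 8 genes higher and 22 to 25 lower, medians of -0.50 to -0.45, and 4081 to 4347 genes higher and 3945 to 4211 lower over all genes. Library totals alone gave 3 autophagy genes higher and a median of -0.67; DESeq2 gave 4 higher. A minimum of 1.5-fold gave 1964 genes higher and 1912 lower, 2 and 9 of them autophagy genes. Signs changed for small differences. With library totals alone they were Atg16l1 -0.0351, Atg3 -0.0546, Ambra1 -0.0415, Vmp1 -0.0720, Atg5 -0.12, Epg5 -0.18 and Pik3r4 -0.19. Pik3r4 was -0.0029 with DESeq2 size factors, -0.0356 with at least 30 counts, -0.0149 without immunoglobulin genes and -0.0407 with GC content and length corrected. Becn1 was 0.0518 with no filter. Epg5 was -0.0240 with at least 30 counts and -0.0034 without immunoglobulin genes, and Pik3c3 was 0.0347 with GC content and length corrected. With libraries left out, Epg5 lay between -0.0407 and 0.0662, Atg9a between -0.32 and 0.15, Pik3r4 between -0.0634 and 0.0620, Becn1 between -0.0460 and 0.0110 and Atg4c between -0.93 and 0.0285. The cause of these changes was not tested. Whether equal replicate numbers mark a shared mouse could not be settled from the counts. Deviations from the subset mean, over 11296 genes, correlated at 0.06, -0.01 and -0.02 between DP and DN libraries of equal number. Between libraries of unequal number the correlations lay between -0.04 and 0.04. Values this small from 3 libraries per subset neither establish nor exclude pairing. With the replicate number as a block, 7 autophagy genes were higher and 25 lower, with Pik3r4 at -0.0052 and Atg10 no longer called; block with GC content and length corrected gave Pik3c3 0.0385 and Pik3r4 -0.0468. At this depth Atg4a-ps, Atg9b and Wipi1 could not be compared.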
